A study of Mus musculus with 8 samples.

Results

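Kinesins, cytoplasmic dynein and dynactin, the genes of microtubule transport, were followed in mRNA-seq libraries of Neuro2A (N2A) cells, an established mouse neuroblastoma line that extends neurites after activation of the cannabinoid 1 receptor (CB1R). The members were taken by gene symbol alone: the numbered Kif and Kifc genes, the kinesin-associated protein Kifap3, the light chains Klc1 to Klc4, the genes of cytoplasmic dynein 1 and 2, the dynein light chains of the Dynll, Dynlrb and Dynlt families, and Dctn1 to Dctn6. The rule found 68 of the 16980 genes in the table, of which 42 belong to the kinesins, 20 to dynein and 6 to dynactin. N2A cells had been starved in serum-free medium for 16 h and then received either 2 µM HU210, a CB1R agonist dissolved in DMSO, or drug-free DMSO, and RNA was taken at 2, 4, 6 and 8 h. Each of the 8 conditions is 1 library, made by pooling the mRNA of 2 to 3 experiments, so a comparison at 1 time point has no replicate. Expression is given as FPKM, fragments scaled to transcript length and to library size, a level per length that allows genes to be compared within a library. The study gives the number of reads per sample, but FPKM values carry no counts. The reads behind each value are thus unknown here and no counting error can be given for a single library.

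Kinesins are motors that mostly walk toward the growing plus end of a microtubule, and they carry vesicles, mitochondria and mRNA outward along an axon or a growing neurite. Cytoplasmic dynein 1 walks the other way, toward the cell body, and needs dynactin to move far and to hold its cargo, while dynein 2 works inside cilia. Another set of kinesins is known mainly from cell division, where most of them build the mitotic spindle, move chromosomes or complete cytokinesis. A dividing neuroblastoma line expresses both sets.

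The 8 libraries looked alike in overall composition, with between 11328 and 11444 genes at or above 1 FPKM. All 10 listed markers of neuroblastoma and neurons, from a list of 12, had a mean FPKM of at least 1, and their summed level ran from 800.3 to 898 FPKM. Of 12 markers of other cell types, 9 were listed and 4 reached a mean of 1 FPKM, the highest being Mbp at 4.33, with a summed level between 8.53 and 10.4 FPKM. The means of the 10 neuroblastoma and neuron markers ran from 1.14 to 440 FPKM. The highest weigh most in their sum, and the lowest lay under Mbp. Both libraries taken at 4 h stood apart from the others in base composition. The deviation of a gene from its mean over the 8 libraries followed the GC content of its transcript with Spearman coefficients of 0.48 in the HU210 library and -0.48 in the DMSO library at 4 h, against -0.17 to 0.29 in the other 6 libraries. The genes share these libraries, so the coefficients describe the libraries and are not tests.

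Of the 68 members, 54 were listed at all 4 time points with a mean FPKM of at least 1 over the 8 libraries, and these are called tested here. A further 12 were listed throughout at a lower mean. Dctn3 and Kif16b were listed only at 2 h, Dctn3 at 50.4 FPKM with HU210 and 53.1 FPKM with DMSO and Kif16b near 0. Levels spanned more than 2 orders of magnitude among the tested members, from Dynll1 with a mean of 198 FPKM to Kif6 with 1.21 FPKM. In the order of mean levels the range of each tested member over the 8 libraries overlapped that of the next in line, except that Kif3b lay above Kif13a and Kif1c above Kif14 in every library. The 6 members with the highest mean were the light chains Dynll1 (198 FPKM), Dynlrb1 (169 FPKM) and Dynll2 (63.9 FPKM), the dynein heavy chain Dync1h1 (126 FPKM) and the dynactin subunits Dctn2 (96.9 FPKM) and Dctn6 (86.2 FPKM). The most abundant motor kinesins were Kif2a (56.4 FPKM), Kif1b (52.5 FPKM), Kif5b (47.9 FPKM) and Kif5c (38.6 FPKM). Dync1i1, the intermediate chain known from neurons, was listed at 0 in all 8 libraries, and Kif21a did not exceed 0.0046 FPKM. Exons of 15 tested members overlap those of another gene on the opposite strand in the GENCODE vM1 annotation, among them Klc3 (Ercc2), Klc1 (Xrcc3), Kif2a (Dimt1), Kif18a (Mettl15), Kif20a (Cdc23) and Kif4 (Pdzd11). The study lists a stranded library kit among its materials, but whether the authors' counting used the strand is not stated. Without the strand, reads from such overlaps cannot be told apart.

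**Figure D1:**
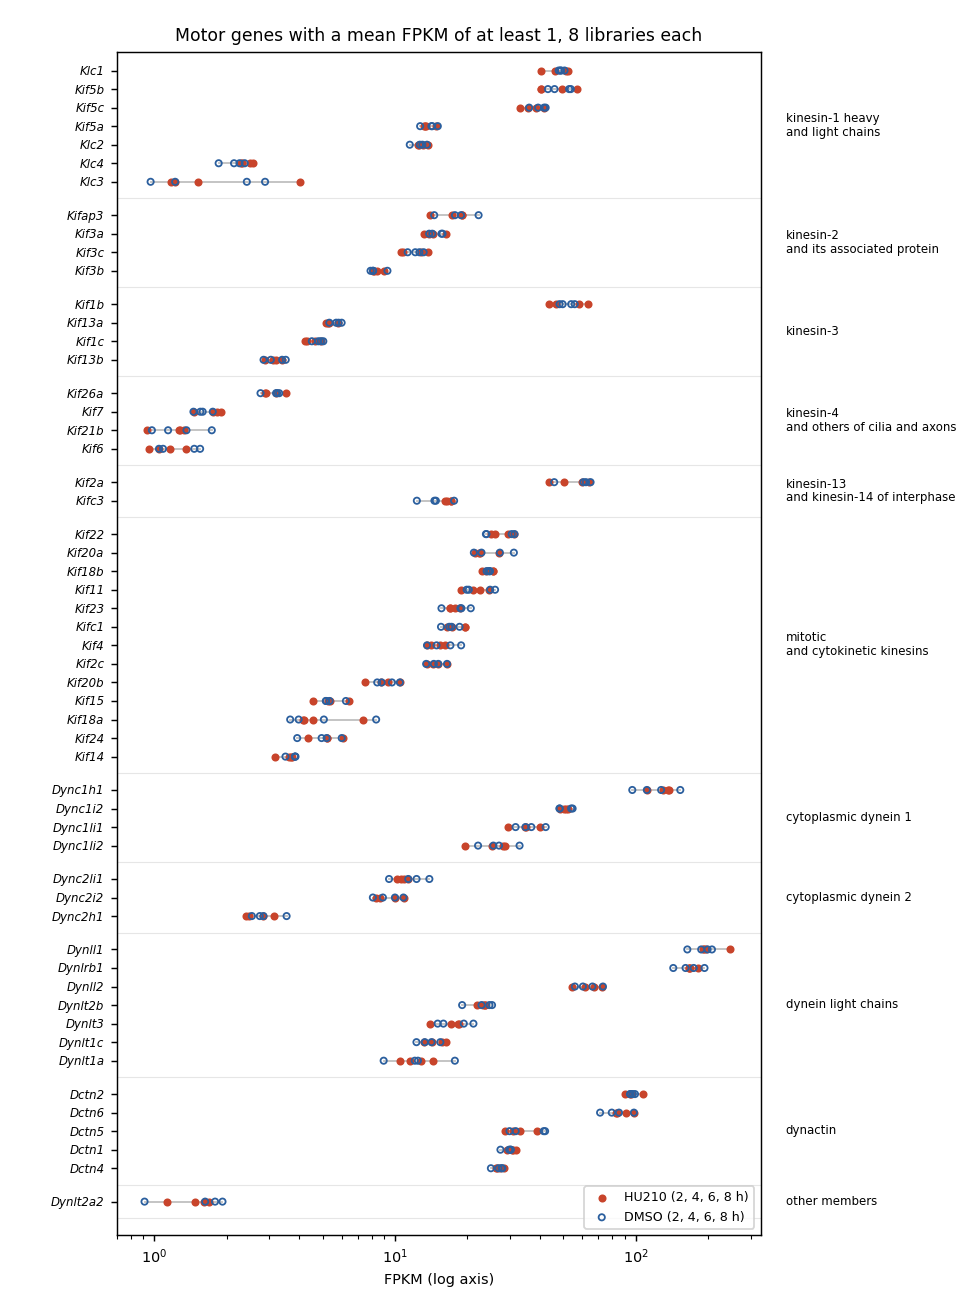
FPKM on a log axis for the 54 motor genes with a mean of at least 1 FPKM, grouped by role, with 4 filled points for the HU210 libraries, 4 open points for the DMSO libraries and a grey line from the lowest to the highest. The light chains Dynll1 and Dynlrb1 and the heavy chain Dync1h1 lie farthest to the right, and the filled and open points of a gene mostly interleave.

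HU210 was first set against DMSO at each time point, the comparison the study was built around. The change is the log2 ratio of the HU210 to the DMSO value of a pair, each with 1 added to its FPKM, and a member is called higher or lower where it passed 1.3-fold, a log2 change of 0.38 in size. At 2 h 0 of the 54 tested members were higher and 1, Kif2a, was lower, beside 1.49% higher and 3.91% lower among all 11306 genes tested. At 4 h 3 members were higher, namely Kifc3, Dync1h1 and Dync2i2, beside 8.97% of all genes, and 12 were lower, which is 22.2% of the members beside 19.9% of all genes. No member passed 1.3-fold in either direction at 6 h, where 6.39% of all genes were higher and 1.72% lower. None passed at 8 h either, beside 4.38% of all genes higher and 1.44% lower. The share of members called at 4 h was thus near the share of all genes in the lower direction, and below it in the higher direction.

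The median log2 change of the tested members was -0.06, -0.16, 0.08 and 0.01 from the first to the last time point. Over all genes tested it was -0.05, -0.08, 0.06 and 0.04. Just inside the 1.3-fold limit at 4 h was Kif5b with a log2 change of -0.39, and just outside it was Kif6 with -0.34. At 6 h the largest change was that of Dynll2 with 0.37, and at 8 h that of Klc3 with 0.37, both just under the limit. Klc4, Kif7 and Kif24 had a change above 0 at all 4 time points, which 4.50% of all genes tested also had, and Kif1c one below 0 at all 4, which 3.43% of all genes had. None of these 4 genes reached 1.3-fold at any time.

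**Figure D2:**
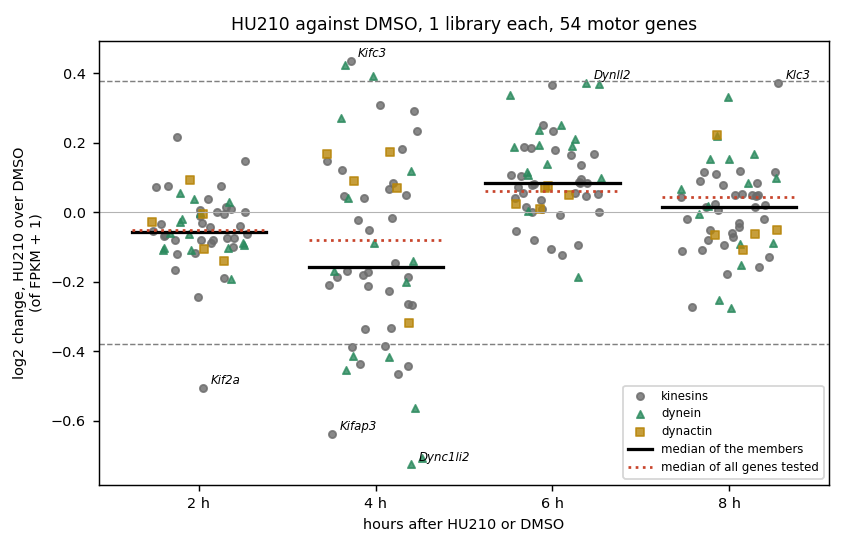
The log2 change of HU210 over DMSO, on FPKM + 1, for the 54 tested motor genes at 2, 4, 6 and 8 h, with circles for kinesins, triangles for dynein and squares for dynactin, black bars for the median of the members, dotted bars for the median of all genes tested and dashed lines at 1.3-fold. The points at 4 h are spread most widely and 12 of them lie below the lower line, whereas at 6 and 8 h all 54 lie between the lines.

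Kinesin-1, the main motor of outward transport, pairs heavy chains of the Kif5 genes with light chains of the Klc genes that bind cargo. Its 7 members were all tested. Kif5b, the heavy chain found in most cells, held a median of 47.2% of the summed Kif5 level, Kif5c 38.5% and Kif5a, the chain largely restricted to neurons, 14.4%. The Kif5b share stayed between 44.6% and 52.4% in the 8 libraries and that of Kif5a between 11.7% and 15.4%. Among the light chains Klc1 made up between 71.7% and 75.5% of the summed level. The light chains together stood at 0.65 times the heavy chains in the median library, with a range of 0.59 to 0.78.

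In the order 2, 4, 6 and 8 h, which is kept below, Kif5b stood at 40.3, 40.3, 49.3 and 57.3 FPKM with HU210 and at 46.0, 52.9, 43.2 and 53.8 FPKM with DMSO. Its 2 h and 4 h HU210 libraries were the lowest of the 8 and its 8 h libraries the highest. Kif5c was measured at 33.1, 35.8, 41.7 and 38.5 FPKM with HU210 and 36.1, 41.6, 39.3 and 42.3 FPKM with DMSO, lower with HU210 in 3 of the 4 pairs by log2 changes of up to -0.21. Klc1 had 40.3, 51.6, 46.3 and 52.2 FPKM with HU210 and 47.9, 48.6, 49.0 and 50.6 FPKM with DMSO, with the lowest value in the 2 h HU210 library, a log2 change of -0.24. The HU210 and DMSO values of all 3 genes overlapped.

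Klc3, a light chain best known from spermatids, was the kinesin-1 member that varied most. It stood at 1.18, 1.52, 1.22 and 4.03 FPKM with HU210 and 0.97, 2.42, 1.22 and 2.89 FPKM with DMSO, so that both 8 h libraries were the highest of the 8 and the 4 h DMSO library came next. The log2 change was 0.15, -0.44, 0.0018 and 0.37 in turn.

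Kinesin-2 is a motor of Kif3a with Kif3b or Kif3c and the non-motor subunit Kifap3, and it serves both axonal transport and the building of cilia. Kif3a was the most abundant of the 3 motor chains, at 38.8% to 46.3% of their sum, and stood between 1.54 and 2.00 times the level of Kif3b. Its values were 13.2, 16.4, 14.4 and 13.9 FPKM with HU210 and 13.9, 14.3, 15.8 and 15.6 FPKM with DMSO, and its log2 change of -0.12 was among the 3 lowest of all members at 6 h. Kif3b and Kif3c had mean levels of 8.40 and 12.2 FPKM, and Kif17, the homodimeric kinesin-2 of dendrites, did not exceed 0.38 FPKM in any library.

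Kifap3 (ENSMUSG00000026585, chr1:165709714-165847240 in mm9, plus strand) had the largest change of any tested kinesin. Its level was 17.3, 13.9, 19.0 and 19.0 FPKM with HU210 and 17.7, 22.2, 14.6 and 18.8 FPKM with DMSO. The 4 h pair held the lowest and the highest of the 8 values, HU210 lowest, with a log2 change of -0.64, and at 6 h the HU210 value was the higher, with a log2 change of 0.37.

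Of the kinesin-3 motors, which carry synaptic vesicle precursors, dense core vesicles and mitochondria, Kif1b supplied 76.4% to 82.7% of the summed level of the 4 tested genes. It stood at 46.8, 43.7, 63.7 and 58.4 FPKM with HU210 and 48.3, 49.7, 55.8 and 54.0 FPKM with DMSO, and all 4 libraries of 6 and 8 h lay above all 4 of 2 and 4 h. Kif13b, at 2.89, 3.40, 3.19 and 3.12 FPKM with HU210 and 2.84, 3.05, 3.52 and 3.40 FPKM with DMSO, had a log2 change of -0.11 at 6 h, among the 3 lowest there, and stayed within a narrow range. Kif13a and Kif1c had means of 5.56 and 4.68 FPKM and no change past a log2 size of 0.19. Kif1a, a well-known neuronal motor of this class, is not analysed here.

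The kinesins of cilia and axons outside these classes were low. Of 9 members 4 were tested, with means between 1.21 and 3.13 FPKM, and none passed 1.3-fold at any time. Kif21b, which slows microtubule growth in neurons, stood at 1.27, 0.94, 1.33 and 1.26 FPKM with HU210 and 1.36, 1.14, 0.98 and 1.73 FPKM with DMSO, and its log2 change of -0.27 was the lowest among kinesins at 8 h. The other tested members of this class were Kif26a, Kif7, a regulator of Hedgehog signalling at the cilium tip, and Kif6.

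Kif2a (ENSMUSG00000021693, chr13:107749076-107812206 in mm9, minus strand) takes microtubule ends apart and restrains side branches of neurites. It was the only tested member past 1.3-fold at 2 h. Its values were 43.5, 60.0, 50.5 and 64.0 FPKM with HU210 and 62.1, 60.6, 45.9 and 64.9 FPKM with DMSO. The 2 h HU210 library was the lowest of the 8, both 6 h libraries came next, and the other 5 lay between 60.0 and 64.9 FPKM. The log2 change of -0.50 at 2 h stood beside -0.02, 0.14 and -0.02 at the later times.

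Kifc3 (ENSMUSG00000031788, chr8:97623732-97666440 in mm9, minus strand), a minus-end kinesin of epithelial junctions and Golgi positioning, was the tested member with the largest increase at 2 h and at 4 h. It stood at 17.1, 17.0, 16.4 and 16.1 FPKM with HU210 and 14.6, 12.3, 17.6 and 14.8 FPKM with DMSO, and the lowest value was that of the 4 h DMSO library. The log2 changes were 0.22, 0.44, -0.10 and 0.12, and the 4 HU210 values, from 16.1 to 17.1 FPKM, lay above 3 of the 4 DMSO values. After loess correction for transcript GC content and length, its 4 h change was 0.18.

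Dynein 1 is built on the heavy chain Dync1h1 with intermediate and light intermediate chains that join it to dynactin and to cargo adaptors. Dync1h1 (ENSMUSG00000018707, chr12:111839662-111905155 in mm9, plus strand) stood at 111, 130.2, 137 and 138 FPKM with HU210 and 111, 96.8, 128 and 153 FPKM with DMSO. The 4 h DMSO library was the lowest of the 8 and gave a log2 change of 0.42 at 4 h, while the 8 h DMSO library was the highest and gave -0.15 at 8 h.

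Dync1i2, the intermediate chain of most cells, varied little, at 50.5, 48.5, 52.3 and 51.4 FPKM with HU210 and 53.9, 54.7, 48.2 and 48.4 FPKM with DMSO. Since Dync1i1 was listed at 0, Dync1i2 accounted for the whole intermediate chain level in these libraries. The ratio of Dync1h1 to Dync1i2 ranged from 1.77 in the 4 h DMSO library to 3.17 in the 8 h DMSO library, and that of Dync1h1 to the dynein 2 heavy chain Dync2h1 from 35.3 to 54.3.

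The 2 light intermediate chains, which tie dynein to activating adaptors, differed in direction at 4 h. Dync1li2 (ENSMUSG00000035770, chr8:106941574-106966947 in mm9, minus strand) stood at 25.4, 19.5, 28.2 and 28.6 FPKM with HU210 and 27.0, 32.9, 22.1 and 25.6 FPKM with DMSO. Its 4 h pair held the lowest and the highest of the 8 values, and the log2 change of -0.73 was the most negative of all members and times. Dync1li1 had 29.5, 40.1, 35.0 and 34.7 FPKM with HU210 and 31.7, 36.9, 34.8 and 42.3 FPKM with DMSO, a log2 change of 0.12 at 4 h and -0.28 at 8 h, the latter being the most negative change at 8 h. The share of Dync1li2 in the sum of the pair was 32.7% in the 4 h HU210 library and 47.2% in the 4 h DMSO library, the lowest and the highest of the 8.

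Dynein 2 returns cargo from the tip of a cilium and was expressed far below dynein 1. Its heavy chain Dync2h1 stood at 2.48, 2.40, 3.14 and 2.82 FPKM with HU210 and 2.54, 2.74, 2.84 and 3.55 FPKM with DMSO. All libraries of 6 and 8 h lay above all of 2 and 4 h, and the 8 h change of -0.25 was among the 3 lowest there. The intermediate chain Dync2i2 had 9.98, 10.9, 8.67 and 8.31 FPKM with HU210 and 10.8, 8.09, 9.99 and 8.91 FPKM with DMSO, was higher with HU210 at 4 h by a log2 change of 0.39 and lower at 6 h by one of -0.18, the lowest value of any member at that time. After loess correction for GC content and length, its 4 h change was 0.12. The light intermediate chain Dync2li1 was measured at 10.6, 10.2, 10.9 and 11.3 FPKM with HU210 and 12.3, 13.9, 9.45 and 11.3 FPKM with DMSO, below its DMSO partner at 2 h (-0.19) and at 4 h (-0.41) and above it at 6 h (0.19).

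Dynein light chains bind the intermediate chains as dimers, and several, Dynll1 above all, also serve proteins outside dynein. Dynll1 and Dynll2 code for nearly the same small protein, and their coding sequences show how far apart the genes are for reads. Both coding sequences, from the GENCODE vM1 transcripts, have 270 bases and differ at 51 of them, shown in capitals.
Dynll1: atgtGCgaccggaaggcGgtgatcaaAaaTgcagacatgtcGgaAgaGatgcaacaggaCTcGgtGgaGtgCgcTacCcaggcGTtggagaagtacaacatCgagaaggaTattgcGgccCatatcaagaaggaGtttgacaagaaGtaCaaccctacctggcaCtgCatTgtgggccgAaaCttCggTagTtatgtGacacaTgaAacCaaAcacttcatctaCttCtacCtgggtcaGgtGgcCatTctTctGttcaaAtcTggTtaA
Dynll2: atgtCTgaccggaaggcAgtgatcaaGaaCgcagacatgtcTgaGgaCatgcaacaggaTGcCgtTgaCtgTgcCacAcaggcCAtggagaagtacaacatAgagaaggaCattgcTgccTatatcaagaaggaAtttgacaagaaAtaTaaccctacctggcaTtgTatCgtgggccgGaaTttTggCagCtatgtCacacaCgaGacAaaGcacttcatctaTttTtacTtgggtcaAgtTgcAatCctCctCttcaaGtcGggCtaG
No window of 100 bases in the longest Dynll1 transcript occurred in a Dynll2 transcript. Reads of that length would tell the 2 genes apart, although the read length behind the values is not given in the sources used here.

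Dynll1 (chr5:115747119-115751008 in mm9, minus strand) stood at 196, 193, 247 and 191 FPKM with HU210 and 199, 187, 207 and 164 FPKM with DMSO, with the highest value in the 6 h HU210 library and the lowest in the 8 h DMSO library. Dynll2 (chr11:87793027-87801035 in mm9, minus strand) had 61.5, 54.5, 72.7 and 67.2 FPKM with HU210 and 66.1, 73.1, 55.9 and 60.3 FPKM with DMSO. For Dynll2 the 4 h pair held the lowest and the highest of the 8 values, HU210 lowest (-0.42), and at 6 h the HU210 value was the second highest (0.37). At 4 h the log2 change of Dynll1 was 0.04, and Dynll2 made up 22.1% of the sum of the pair with HU210 and 28.1% with DMSO, near the ends of its range of 21.2% to 28.1%.

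The Dynlt1 genes are a different case, a cluster of near-identical copies on chromosome 17. The coding sequences of Dynlt1a (chr17:6310547-6317474 in mm9, minus strand) and Dynlt1c (chr17:6646959-6655064 in mm9, minus strand) have 342 bases and differ at 0 of them, and the first 150 bases are shown because they are the same in both.
Dynlt1a and Dynlt1c: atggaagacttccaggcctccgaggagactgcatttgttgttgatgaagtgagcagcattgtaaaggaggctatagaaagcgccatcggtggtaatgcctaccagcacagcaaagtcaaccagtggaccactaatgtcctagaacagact
Of the windows of 100 bases in the Dynlt1a transcript, 73.9% occurred in a transcript of another gene, and 58.3% in Dynlt1c itself. Dynlt1a stood at 12.8, 10.5, 14.4 and 11.5 FPKM with HU210 and 12.5, 17.7, 12.1 and 8.97 FPKM with DMSO, with a log2 change of -0.71 at 4 h and 0.33 at 8 h. Dynlt1c stood at 14.2, 16.3, 15.7 and 13.2 FPKM with HU210 and 15.4, 13.3, 14.2 and 12.3 FPKM with DMSO, and its change at 4 h was 0.27, the opposite direction. Taken as a sum, the 2 copies changed by a log2 value of -0.04, -0.21, 0.19 and 0.21 at the 4 times, so that the sum did not pass 1.3-fold at any of them. The authors divided reads that fit several places by estimation (multi-read correction), so the split between the copies is uncertain and the change of either copy alone depends on it. Both copies also share windows with Dynlt1b, Dynlt1e and Dynlt1f, which the sum leaves out, so the sum is uncertain too.

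Dynlrb1, a roadblock light chain, had a mean of 169 FPKM and no change past 1.3-fold. Dynlt3, at 18.5, 14.02, 18.2 and 17.0 FPKM with HU210 and 19.3, 21.2, 15.9 and 15.0 FPKM with DMSO, again had the lowest and the highest value in the 4 h pair, a log2 change of -0.56. Dynlt2a2 stood at 1.68, 1.13, 1.47 and 1.62 FPKM with HU210 and 1.63, 1.92, 0.91 and 1.79 FPKM with DMSO and changed by -0.45 at 4 h and 0.37 at 6 h. It shares 81.2% of its windows with other genes, so its values too are uncertain. The same holds for its near copy Dynlt2a1, with 88.9% of windows shared and a mean of 0.95 FPKM.

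Dynlt5, whose mean of 0.96 FPKM left it untested, is named here after its values were seen. It stood at 3.94, 0.28, 0.77 and 0.59 FPKM with HU210 and 0.75, 0.44, 0.54 and 0.34 FPKM with DMSO. The 2 h HU210 library was above all others and gave a log2 change of 1.501, the largest in size of any member at any time, in a gene that was below 1 FPKM in the other 7 libraries.

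Dynactin is the partner that lets dynein move far. Among its 5 tested members the highest of the 8 values was 1.13 (Dctn4) to 1.46 (Dctn5) times the lowest. Between HU210 and DMSO none of the 5 passed 1.3-fold at any time. The largest change was that of Dctn5, a subunit of the pointed-end complex, at 4 h. Dctn1, the large subunit that touches both dynein and the microtubule, stood at 31.8, 30.9, 30.8 and 29.1 FPKM with HU210 and 29.8, 27.4, 30.3 and 30.2 FPKM with DMSO, with a log2 change of 0.09 at 2 h, the third largest increase there among tested members. Dctn5 had 28.7, 33.0, 31.0 and 39.0 FPKM with HU210 and 31.7, 41.5, 29.9 and 42.0 FPKM with DMSO, a log2 change of -0.32 at 4 h. Dctn6, of the same complex, was measured at 98.0, 90.8, 83.8 and 83.1 FPKM with HU210 and 98.3, 85.2, 79.5 and 71.1 FPKM with DMSO, and all its libraries of 6 and 8 h lay below all of 2 and 4 h. Its 8 h change of 0.22 was the third largest increase at that time among tested members. Dctn2, the subunit called dynamitin, kept to between 2.84 and 3.48 times the level of Dctn1.

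The 12 members lower at 4 h came from 7 of the 11 groups: the kinesin-1 genes Kif5b and Klc3, Kifap3 of kinesin-2, the mitotic kinesins Kif20a, Kif4 and Kif11, Dync1li2 of dynein 1, Dync2li1 of dynein 2, the light chains Dynlt1a, Dynlt3 and Dynll2, and Dynlt2a2. The last is a light chain gene too, but the gene lists left it in a group of other members, which is among the 7. In 9 of the 12 the 4 h DMSO library was the highest of the 8, in 6 the 4 h HU210 library was the lowest, and in 4 both held, namely Dync1li2, Kifap3, Dynlt3 and Dynll2. Both held for 38.4% of the 2250 genes that were lower at 4 h over the whole table, so the 33.3% among the members did not set them apart. At 6 h, in other libraries, all 12 had a log2 change above 0, from 0.0018 to 0.37. Of all 54 tested members 47 had one above 0, and the share of all genes is not given. The median was 0.19 for the 12 and 0.07 for the other 42 tested members. Over the whole table the genes lower at 4 h had a median of 0.23 at 6 h and the other genes 0.03. Across the 54 members the changes at 4 h and 6 h had a Spearman coefficient of -0.54, and across all 11306 genes one of -0.56, both given as descriptions.

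**Figure D3:**
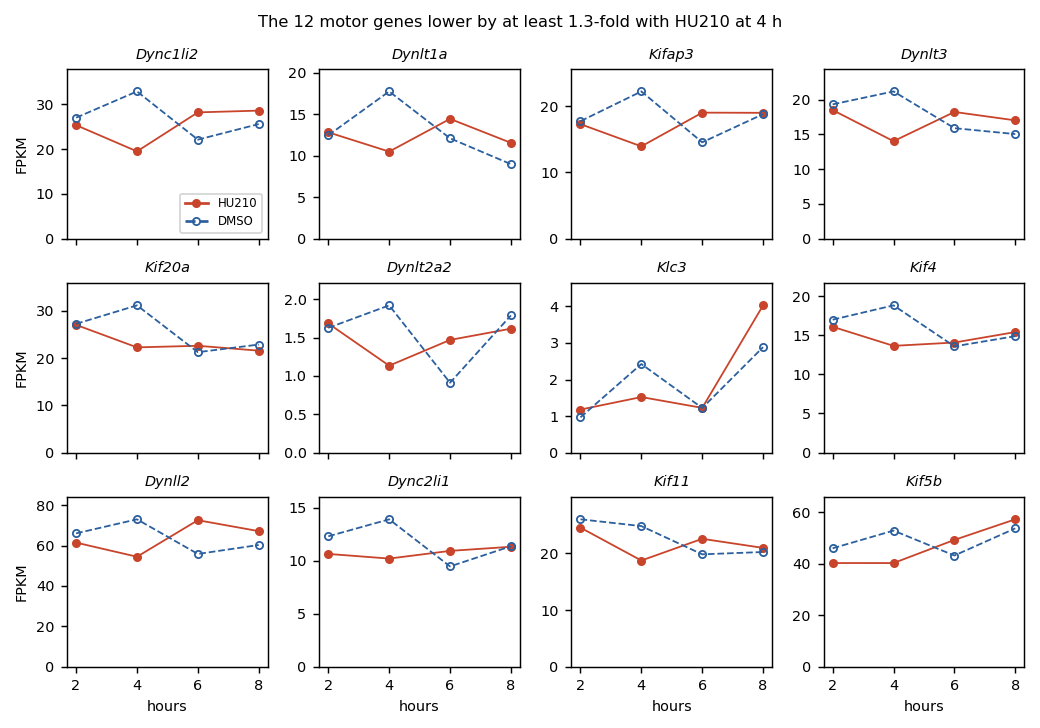
FPKM by hour of the 12 motor genes that were lower by at least 1.3-fold with HU210 at 4 h, in order of that change, with filled points and solid lines for HU210, open points and dashed lines for DMSO, and axes that start at 0. In 9 panels the 4 h DMSO point is the highest of the 8, and in all 12 the HU210 point is at or above the DMSO point at 6 h.

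The 4 h change also moved with base composition. Over the 10585 genes tested with a coding transcript, the 4 h change had a Spearman coefficient of 0.53 with transcript GC content, against 0.17 at 2 h, -0.30 at 6 h and -0.15 at 8 h. Among the 54 members it was 0.49 at 4 h. The 12 members lower at 4 h had a median GC content of 47.1% and the 3 higher members one of 58.5%, the lowest of them, Dync1h1, being at 53.7%. The lower members were not all poor in GC, since Klc3 lay at 63.0% and Dynll2 at 53.7%. With a loess trend on GC content and length taken off the 4 h changes, 8 members were lower, 7 of the 12 among them (Dync1li2, Dynlt1a, Kifap3, Dynlt3, Dynll2, Kif20a and Klc3), and Dynlrb1 joined. On the higher side Dync1h1 stayed past 1.3-fold at 0.43, Kifc3 and Dync2i2 did not, and Kif3a joined at 0.44, so that 2 members were higher. When the 4 h HU210 library was set against all 4 DMSO libraries averaged on the log2 scale, 1 member, Dync1li2, was lower and 0 were higher. With the 4 h pair centred on its median ratio, 5 were lower. The part of base composition and of the 4 h DMSO library in these changes was not tested.

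**Figure D4:**
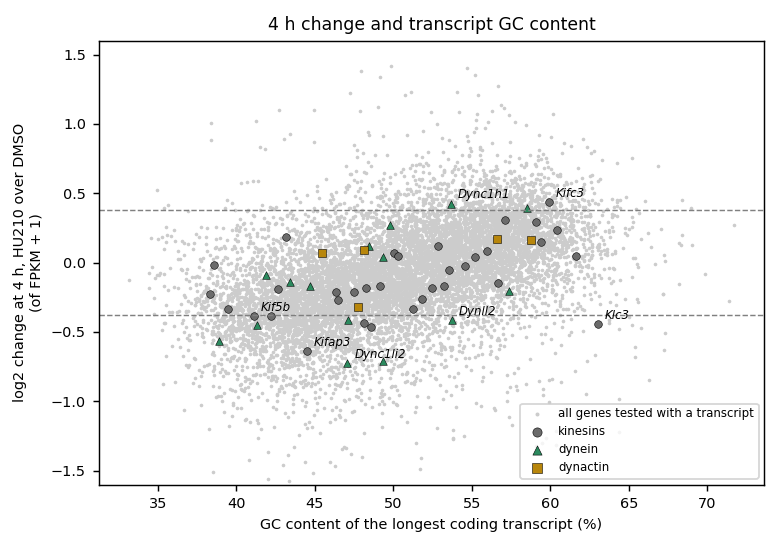
The log2 change at 4 h, HU210 over DMSO on FPKM + 1, against the GC content of the longest coding transcript in percent, with grey points for all genes tested, circles for kinesins, triangles for dynein, squares for dynactin and dashed lines at 1.3-fold; 6 genes outside the axis limits are not drawn. The grey cloud rises from left to right and the members lie within it, with Kifc3 and Dync1h1 above the upper line and Dync1li2 and Kifap3 below the lower one.

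HU210 was then compared with DMSO over the 4 time points together, with limma on log2(FPKM + 1) and the time point as a block, which uses the 4 pairs as the replicates of the drug difference. The spread it is set against therefore includes any change of the drug difference with time. At an adjusted p of 0.05 the number of members called was 0 of 54, beside 0% of all genes, and at an unadjusted p under 0.05 it was also 0, beside 1.31% of all genes. The largest estimates were those of Kifc3, with 0.17 (SE 0.10, higher in 3 of 4 pairs), Dctn5, with -0.13 (SE 0.085, lower in 3 of 4 pairs), and Dynll1, with 0.12 (SE 0.086, higher in 3 of 4 pairs), each with an adjusted p of 1.0.

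The hours were compared next, with the 4 libraries of 6 and 8 h against the 4 of 2 and 4 h and treatment as a covariate. This fit has no block for the hour. The HU210 and DMSO library of an hour thus count as separate replicates, although they share any effect of that hour. Of the 13 mitotic kinesins, 12 had an estimate below 0, with a median of -0.10, beside a median of -0.01 over all genes tested. None of the 13 passed the test. The genes share these libraries, so the count is a description, and the share of all genes below 0 is not given. Of all 54 members, 0 reached an adjusted p of 0.05, beside 0% of all genes, and 7 (12.96%) had an unadjusted p under 0.05, beside 7.21% of all genes. These 7 were Kif22, Kif18a and Kif20a of the mitotic kinesins and Dctn6, all with estimates below 0, and Kif1b, Dync1h1 and Dync2h1, all with estimates above 0. All 4 late libraries lay below all 4 early ones for 3 members (5.56%, beside 2.20% of all genes), Kif22, Dctn6 and Dynlt2b, and above them for 2 members (3.70%, beside 3.24%), Kif1b and Dync2h1.

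Kif18a, which brings chromosomes to the spindle equator, had the largest estimate, -0.47 (SE 0.18, adjusted p = 0.66). It stood at 7.33, 4.19, 4.56 and 4.15 FPKM with HU210 and 8.35, 5.06, 3.67 and 3.98 FPKM with DMSO, so both 2 h libraries were well above the other 6. The estimates of Klc3, with 0.35 (SE 0.30, adjusted p = 0.85), and of Dync1h1, with 0.31 (SE 0.10, adjusted p = 0.64), came next. Without the 2 h libraries the estimate of Kif18a was -0.14, and that of Klc3 ran from -0.15 without the 8 h libraries to 0.84 without those of 6 h, so that its direction turned. Kif22, a motor on chromosome arms, had -0.30 (SE 0.067, adjusted p = 0.52), the smallest adjusted p of all tested members in this comparison.

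Among the other mitotic kinesins, Kif11, the motor that pushes spindle poles apart, stood at 24.6, 18.8, 22.6 and 21.0 FPKM with HU210 and 26.0, 24.8, 19.9 and 20.3 FPKM with DMSO, highest with DMSO at 2 h. Kif23, which bundles the central spindle with Racgap1, had 17.8, 17.0, 16.9 and 18.6 FPKM with HU210 and 18.7, 20.6, 15.6 and 18.9 FPKM with DMSO, with one DMSO library the highest and another the lowest of the 8. Kif14, of the midbody, was the 1 gene of the 13 with an estimate above 0, and Kif18b was nearly flat, between 23.0 and 25.5 FPKM in all libraries. At 4 h 3 of the 13 were lower with HU210, which is 23.1% beside 19.9% of all genes, and 0 higher. At 6 h all 13 had a log2 change above 0, at most 0.25, and 47 of all 54 tested members had one above 0. The median of all genes was also above 0, at 0.06. Kifc1 shares 23.8% of its windows with the copy Kifc5b, so its values are uncertain.

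**Figure D5:**
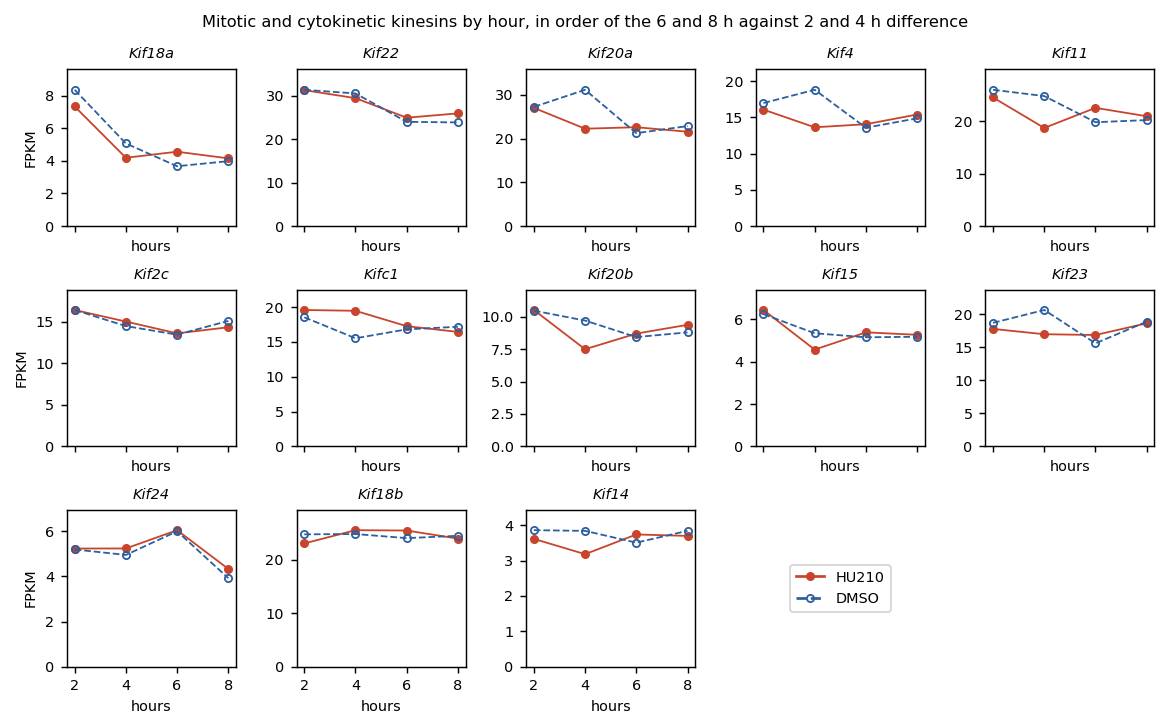
FPKM by hour of the 13 mitotic and cytokinetic kinesins, ordered by the difference between 6 and 8 h and 2 and 4 h, with filled points and solid lines for HU210, open points and dashed lines for DMSO, and axes that start at 0. Kif18a is highest at 2 h in both treatments and Kif22 is higher at 2 and 4 h than at 6 and 8 h, whereas Kif18b and Kif14 run nearly level.

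Promoters of the mitotic kinesins were read for 2 elements known from genes of cell division, on both strands. The CHR (cell cycle genes homology region) was searched as TTTGAA and in its other known form TTCGAA. Read from the opposite strand, the first form is TTCAAA and the second stays the same. The CCAAT box was searched by its name, which reads ATTGG from the opposite strand, and neither motif contains the other. RefSeq promoters of 300 bases in GRCm38.p6, from 250 before to 50 after the start, were in the table for 12 of the 13 genes, without Kif20a. A CHR motif occurred in 11 of the 12 (91.7%), beside 19.2% of all 32851 promoters and 4 of 40 promoters (10.0%) of the other members. A CCAAT box occurred in 8 of the 12 (66.7%), beside 37.4% of all promoters and 40.0% of those of the other members. Within 50 bases before to 30 after the start, 9 of the 12 (75.0%) held a CHR motif, beside 4.33% of all promoters. The 5 promoters below were chosen after the search, because both motifs lie close to the start in each. They run from 120 bases before to 30 after the start, 5′ to 3′ on the strand of the gene, with both motifs in capitals: Kif11 at chr19:37376262-37376411 (plus strand), Kif22 at chr7:127042391-127042540, Kif23 at chr9:61946770-61946919, Kif18b at chr11:102925095-102925244 and Kifc1 at chr17:33890604-33890753 (all minus strand).
Kif11: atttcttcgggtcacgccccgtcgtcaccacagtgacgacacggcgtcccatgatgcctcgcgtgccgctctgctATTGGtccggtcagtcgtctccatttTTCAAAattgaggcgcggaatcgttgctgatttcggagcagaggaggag
Kif22: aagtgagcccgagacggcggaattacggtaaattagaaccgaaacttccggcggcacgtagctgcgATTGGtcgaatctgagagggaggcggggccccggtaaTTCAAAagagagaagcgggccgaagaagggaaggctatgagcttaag
Kif23: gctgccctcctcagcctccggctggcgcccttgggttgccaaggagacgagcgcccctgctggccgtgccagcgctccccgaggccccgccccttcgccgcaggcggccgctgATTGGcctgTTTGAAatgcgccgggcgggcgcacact
Kif18b: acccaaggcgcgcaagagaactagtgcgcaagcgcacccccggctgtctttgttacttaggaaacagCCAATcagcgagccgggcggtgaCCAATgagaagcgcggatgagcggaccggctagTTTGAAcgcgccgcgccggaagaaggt
Kifc1: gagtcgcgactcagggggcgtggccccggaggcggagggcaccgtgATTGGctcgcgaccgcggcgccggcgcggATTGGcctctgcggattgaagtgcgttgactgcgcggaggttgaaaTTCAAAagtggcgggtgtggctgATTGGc
In Kif11 the CHR motif began 19 bases before the start and the ATTGG 45 bases before it, and in Kif22 they began 17 and 54 bases before it. In Kif23 and Kif18b the CHR motif began at base 3 and base 4 of the transcript, counted from 1 at the start. The match of letters is a description, and no binding was measured here. Kif18b and Kif22 both hold the 2 motifs, and their late against early estimates were -0.0024 and -0.30 on the log2 scale. The gene of the 12 without a CHR motif was Kif18a, which held no CCAAT box either, and its estimate was -0.47. Any link between the motifs and the levels was not tested.

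Last, the drug difference at 6 and 8 h was set against that at 2 and 4 h, as an interaction in limma. The estimate was above 0 for 38 of 54 members, with a median of 0.15, beside a median of 0.12 over all genes. That count is a description, and the share of all genes above 0 is not given. At an adjusted p of 0.05 0 members passed, beside 0% of all genes, and at an unadjusted p under 0.05 5 members (9.26%) did, beside 17.0% of all genes. Those 5 were Dynll2, Kif5b, Dync1li2, Dynlt3 and Dync2li1, all with estimates above 0. The largest estimates were those of Dync1li2, with 0.65 (SE 0.23, adjusted p = 0.26), Dynlt1a, with 0.62 (SE 0.25, adjusted p = 0.30), and Kifap3, with 0.53 (SE 0.24, adjusted p = 0.32). Without the 2 h libraries the comparison is of 6 and 8 h with 4 h alone, and then 4 members passed, Dynlt1a (0.99, adjusted p = 0.025), Dync1li2 (0.97, adjusted p = 0.026), Dynlt3 (0.74, adjusted p = 0.032) and Dynll2 (0.68, adjusted p = 0.044), which is 7.41% of the members beside 15.3% of all genes. The earlier side of that comparison is a single pair of libraries, so the spread behind these p-values comes from the 6 and 8 h pairs alone, and the 4 h pair is assumed to vary like them. Over all settings tried the adjusted p ran from 0.025 to 0.94 for Dynlt1a, from 0.026 to 0.96 for Dync1li2, from 0.032 to 0.98 for Dynlt3 and from 0.044 to 0.98 for Dynll2. Without the 4 h libraries 0 members passed.

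Partners of the motors, such as cargo adaptors, dynein regulators and the other dynactin subunits, were examined as a list of 47 genes, of which 46 were listed and 41 tested. Past 1.3-fold, 2 partners were lower and none higher at 2 h, which is 4.88% beside 3.91% of all genes lower. At 4 h 12 were lower, 29.3% beside 19.9% of all genes, and 2 were higher, 4.88% beside 8.97%. At 6 h 6 were higher, 14.6% beside 6.39% of all genes, and at 8 h 2 were higher, 4.88% beside 4.38%, without a lower one at either time. The median log2 changes were -0.06, -0.15, 0.12 and 0.06 in turn. In none of the 3 limma comparisons did a partner reach an adjusted p of 0.05. The partner list, like that of mitosis genes below, was chosen with earlier results of these data known. The study itself names Pafah1b1 and Mapre1 as upregulated at 6 h, so these shares are no independent test. The largest single change was that of Rhot2, a mitochondrial adaptor of both motor kinds, which stood at 14.7, 16.8, 19.6 and 17.4 FPKM with HU210 and 15.6, 7.09, 17.1 and 8.07 FPKM with DMSO. Its DMSO libraries at 4 h and 8 h were the lowest of the 8 and gave log2 changes of 1.14 and 1.02.

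Hook3, an adaptor that activates dynein, had a log2 change of -0.89 at 4 h and 0.42 at 8 h. Pafah1b1, the dynein regulator Lis1, had -0.43 at 2 h, -0.74 at 4 h and 0.55 at 6 h, and Mapre1, the plus-end protein EB1, had -0.73 at 4 h and 0.60 at 6 h. Fyco1, which links late endosomes to kinesin-1, stood at 1.26, 1.25, 3.30 and 1.39 FPKM with HU210 and 2.90, 1.31, 1.47 and 1.302 FPKM with DMSO, with the 2 h DMSO and the 6 h HU210 library alone above 2 FPKM.

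Mitosis genes other than kinesins, a list of 20 that were all tested, were also compared by hour. Of these, 18 had an estimate below 0 for 6 and 8 h against 2 and 4 h. Their median was -0.19, beside -0.01 over all genes tested. They share the 8 libraries with the kinesins, so the count is a description and no separate evidence. The share of all genes below 0 is not given. All 4 late libraries lay below all 4 early ones for 4 of them and above for 0, beside 2.20% and 3.24% of all genes. None reached an adjusted p of 0.05 in limma. At 4 h 8 were lower with HU210 and 1 higher, or 40.0% and 5.0% of the list beside 19.9% and 8.97% of all genes, with a median log2 change of -0.26, and Ccna2, the cyclin of S phase and G2, was the farthest from 0 with -0.82. The mitotic kinesins had a median of -0.21 at that time, so both sets lay below the -0.08 of all genes. After loess correction for GC content and length, the medians were -0.18 for the mitosis genes, -0.014 for the mitotic kinesins and -0.08 for all genes, so that the kinesins then lay above all genes.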

How the data were processed

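mRNA of N2A cells was sequenced in 8 libraries, 1 for each of HU210 and DMSO at 2, 4, 6 and 8 h. Per the labels and the study's methods, the authors mapped reads to mm9 with TopHat2 2.0.8, Bowtie2 2.1.0 and SAMtools 0.1.7 on an Ensembl annotation, and computed FPKM with Cufflinks, using multi-read correction, upper-quartile normalization and fragment bias correction. The deposited table gives FPKM with 1 added, which was subtracted here. Its further columns, and a second table of differentially expressed genes, hold the authors' own fold changes, p-values, q-values and calls, and were not used.

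Members were matched by symbol, and the members and gene lists were chosen with earlier results of these data known. Genes listed at all 4 time points with a mean FPKM of at least 1 were tested. Changes are on the log2(FPKM + 1) scale, which understates those of low genes, with a 1.3-fold limit. Over the 8 libraries limma 3.58.1 (R 4.3.3) was fitted to all 11306 tested genes with a mean-variance trend, and p-values were adjusted by the Benjamini-Hochberg method. For the drug difference and its change with time these p-values measure the spread between pairs of different hours. For the hours they measure the spread between single libraries, with the HU210 and DMSO library of an hour taken as independent. Scripts were tested on simulated data. Values in all libraries were printed for the 3 largest increases and decreases at each time, for members with an adjusted p of at most 0.05 or else the 3 largest estimates of each fit, for 10 main transport and spindle genes, and for near copies. Of other genes the 6 with the largest changes were named.

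Positions, GC content, coding sequences and shared windows of 100 bases come from GENCODE vM1 (mm9), over protein-coding transcripts only, and promoters from RefSeq (GRCm38.p6), in which 46 of the 68 members were found by symbol. Alternatives were a pseudocount of 0.1, no filter, centring, the mean of the DMSO libraries as reference, a 1.5-fold limit, removal of a loess trend (span 0.3) on GC content and length, and leaving out each time point. Figures were drawn with matplotlib 3.10.9.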

Additional observations from a re-analysis of the deposited data

How the results depend on the processing

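With 1 library per condition, each choice moved some counts at single times and left others in place. Of the recomputed counts, those of limma included, 15 moved and 57 stayed the same or near it. At 2 h 1 member was higher without the filter and 1 with the DMSO mean (all 4 DMSO libraries averaged) as reference, where the reported count was 0, and 0 in place of 1 were lower at 1.5-fold. At 4 h 0 in place of 3 were higher with the DMSO mean and at 1.5-fold, and in place of 12 there were 5 lower with each pair centred on its median ratio, 1 with the DMSO mean and 3 at 1.5-fold. At 6 h 3 in place of 0 were higher with a pseudocount of 0.1, 1 with the DMSO mean and 1 with the trend removed. At 8 h 1 in place of 0 was higher with a pseudocount of 0.1 and 1 with the DMSO mean, and 1 in place of 0 was lower with a pseudocount of 0.1. The causes were not tested. In limma 0 members passed under every alternative run for the drug difference and for the hours. For the drug difference at 6 and 8 h against that at 2 and 4 h, leaving out 1 time point gave between 0 and 4 members, the 4 without 2 h, and the other alternatives gave 0. Of 96 recomputed log2 changes of named members, 83 kept their side of 1.3-fold, 7 fell under it and 6 passed it. With the DMSO mean as reference 4 of the 96, all under 1.3-fold as reported, changed sign, namely Dynlt1a at 8 h (0.33 to -0.10), Dynlt2a2 at 6 h (0.37 to -0.034), Klc3 at 2 h (0.15 to -0.34) and Kif13b at 6 h (-0.11 to 0.00022). The labels carry no replicate numbers. The drug difference paired the HU210 and DMSO library of each time point, and without that block 0 members passed as well. The limit throughout is 1 pooled library per condition with no counts behind the FPKM values.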
